A study of Mus musculus with 13 samples.

Results

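Cd24a was the gene followed here, 1 of 16204 genes counted in the series, found by its symbol in the table of each library. It encodes CD24, the surface antigen on which part of the cells had been sorted. The gene spans 5097 bases of chromosome 10, from 43579169 to 43584265 in the mouse assembly GRCm38.p6 (mm10). CD24 is a small, heavily glycosylated protein held in the outer membrane by a glycosylphosphatidylinositol (GPI) anchor. It carries mucin-type O-linked sugars, binds sialic acid receptors and adhesion molecules, and signals in lymphocytes and nerve cells through kinases of the Src family. In the small intestine, antibodies to it are used to sort secretory cells of the crypt, above all Paneth cells, which release antimicrobial peptides beside the stem cells.

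Mouse small intestine was profiled cell by cell with CEL-seq, which sequences the 3′ end of each transcript together with barcodes for the cell and for the molecule. Since 1 tag stands for 1 transcript, gene length was not divided out. All mice were Lgr5-CreERT2 C57Bl6/J animals bred to a Rosa26LSL-YFP reporter: tamoxifen activates a Cre made where the stem cell gene Lgr5 is active, so YFP marks Lgr5-positive cells and their offspring ("traced"). Libraries of traced cells in the CD24+ fraction were made 3 weeks (1 library) and 8 weeks (3 libraries) after tamoxifen, and 2 libraries held non-traced CD24+ control cells at 8 weeks. Traced cells sorted without the CD24 gate were taken at 5 days (5 libraries) and 8 weeks (1 library). Ages, sexes and the number of animals per library are not given in the labels. P-values of comparisons between libraries therefore measure the spread between libraries, which may in part be technical. In comparisons of cell classes within libraries, p-values measure the spread left between sums of a library and class once library differences are removed.

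A thirteenth library was labelled as non-traced CD24+ cells at 3 weeks. Its values were identical, over all 16204 genes and 96 barcodes, to a set of the submitters' combined table whose name has YFP and no CD24. Its Cd24a level was 5.44 transcripts per 10000, against 29.6 in the traced 3-week CD24+ library and 5.44 in the traced 8-week library without the gate. It was kept out of the main tests and is named as the library labelled non-traced 3-week CD24+ wherever it appears. Of 1248 barcodes, 96 in each library, 892 held at least 3000 transcripts and were kept as cells, between 50 and 87 in each library. A kept cell held a median of 5412 to 14458 transcripts, depending on the library. Over the 14 genes of a leukocyte marker list, the summed level was 0.605 to 2.98 per 10000 in the 6 CD24+ libraries tested and 0.0537 to 0.489 in the 6 without the gate. Cd3e, which defines T cells, was at 0 in every CD24+ library. Cd79a, which defines B cells, had 14.4 transcripts in the non-traced 8-week library 1 and 0 in the other CD24+ libraries. Cd79b, the other B cell marker, had 29.4 and 5.01 transcripts in the non-traced 8-week libraries, 1 to 9.03 in the other CD24+ libraries tested and 0 to 6.02 in those without the gate. The part of leukocytes in the results was not tested. The 6 stromal, endothelial and erythroid markers found in the files summed to at most 0.206 per 10000.

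Cd24a transcripts were more abundant in every tested library sorted on CD24 than in any library sorted without it. Traced CD24+ cells held 29.6 Cd24a transcripts per 10000 at 3 weeks and 15.2, 20.4 and 20.3 at 8 weeks, and non-traced 8-week CD24+ cells held 36.6 and 36.9. Without the gate, traced cells held 4.37, 4.21, 6.07, 3.74 and 4.12 at 5 days and 5.44 at 8 weeks. Counting error was smaller than these gaps: the 95% Poisson interval ran from 14.6 to 15.9 in the lowest CD24+ library and from 5.47 to 6.71 in the highest library without the gate. By its level over all kept cells, Cd24a ranked 106th of 16047 genes detected, and the highest value in a single cell was 189.7 transcripts.

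**Figure D1:**
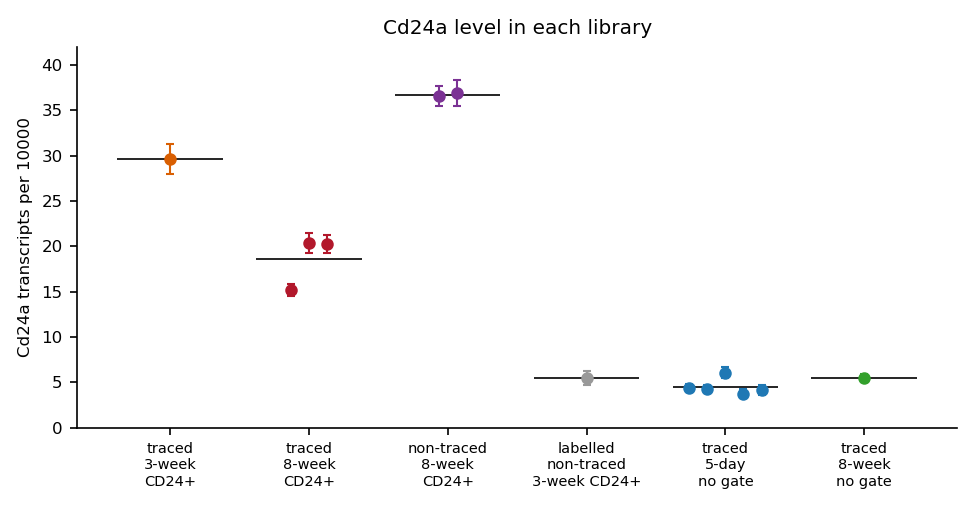
Cd24a transcripts per 10000 transcripts (y axis) in each of the 13 libraries, grouped by sort and time (x axis). Points are libraries with 95% Poisson intervals for counting error, and black lines are group means. The 6 CD24+ libraries tested lie between 15.2 and 36.9, and the 6 libraries without the gate between 3.74 and 6.07.

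The first comparison asked what the sort did to the level of its own antigen's transcript. The 6 CD24+ libraries averaged 26.5 ± 9.19 per 10000 and the 6 without the gate 4.66 ± 0.895 (SD, n = 6 each). The difference was 2.22 on the log2(level + 1) scale, with p = 0.0021645 (exact permutation test on libraries, two-sided), the smallest p that the 924 arrangements allow. Sort and time were largely confounded, since 5 of the 6 libraries without the gate were taken at 5 days. With the library labelled non-traced 3-week CD24+ added to the CD24+ side, the difference was 1.94. Among libraries later than 5 days, it was 2.02 and the exact permutation p was 0.142857, the smallest that 6 libraries against 1 can give.

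In fits across all genes, the CD24+ libraries at 8 weeks were again far above both traced groups without the gate. Against the 5-day libraries, Cd24a was higher in traced 8-week CD24+ cells by 1.94 on the log2 scale (SE 0.155), a 3.85-fold difference with a 95% interval of 3.06 to 4.83. The adjusted p was 2.97e-07 in edgeR's quasi-likelihood test with Benjamini-Hochberg adjustment, where 35.4% of 9981 genes passed at 0.05 in either direction, in a comparison that also differs in time. Against the traced 8-week library without the gate, it was higher by 1.85 (SE 0.28; 3.6-fold, 2.38 to 5.43), with an adjusted p of 0.00264 by edgeR. There 2.66% of 9981 genes passed, and the lone library without the gate was assumed to vary like the other groups.

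At 8 weeks and under the same gate, traced cells held less Cd24a than non-traced cells. The 3 traced CD24+ libraries averaged 18.6 ± 2.96 per 10000 (SD) and the 2 non-traced ones 36.7 ± 0.242, without overlap. The log2 difference was -0.98 (SE 0.193; 0.506-fold, 0.381 to 0.672) and the adjusted p 0.00966 by edgeR, with 4.29% of 9981 genes passing. Some set names of 8-week CD24+ libraries in the combined table carry II. These were read as a second round, which no label states. In the first round the traced library held 15.2 and the non-traced one 36.6, and in the second the traced libraries held 20.4 and 20.3 and the non-traced one 36.9. With the round as a block the difference was -1.03 (adjusted p 0.00978 by edgeR). The adjusted p was 0.0549 without the traced library 1, 0.0988 without the non-traced library 1 and 0.0578 without the non-traced library 2.

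Cell make-up moved with this difference. Tuft-like cells were 17.2%, 21.5% and 20.3% of kept cells in the traced 8-week CD24+ libraries and 47.6% and 49.2% in the non-traced ones. In bulk sums of this kind, fewer cells of a type and less Cd24a in each cell cannot be told apart, and the levels within a class are therefore given as well.

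Cell classes were made by clustering on all genes other than Cd24a and named from marker lists, so that Cd24a had no part in the classes in which it was measured. Each count was split at random with a probability of 0.5, and one share of the counts made the clusters while the other entered the tests between classes. Of the 16 clusters, 13 took a name. Classes named in this way are called like the cell type whose markers they carry.

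Tuft-like cells, chemosensory cells that carry Dclk1, Trpm5 and Alox5ap, held by far the most Cd24a. In the CD24+ libraries they averaged 75.5 ± 3.69 per 10000 (SD over 6 libraries, 134 cells). The single libraries held 81.3 at 3 weeks, 76.6, 70.2 and 73.3 in traced cells at 8 weeks, and 76.4 and 75.4 in non-traced cells at 8 weeks. The 6 values lie close together, with no gap between the traced and the non-traced libraries. The one library without the gate that had 3 tuft-like cells held 52.7, with a 95% Poisson interval of 41 to 66.4.

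Paneth-like cells, led by defensins, Lyz1 and Ang4, came next in the CD24+ libraries with 19.5 ± 4.25 (5 libraries, 59 cells) and a range of 14.3 to 25.2. Enteroendocrine-like cells, which make gut hormones, held 16.3 ± 5.52 (6 libraries, 97 cells) and ranged from 7.51 to 21.5. These neighbours overlapped library by library. Goblet-like cells, which make mucus, held 9.27 ± 3.05 (3 libraries), stem-like cells 5.54 ± 1.65 (3 libraries) and proliferating-like cells 4.34 ± 2.29 (4 libraries). The last pair overlapped in range, at 3.67 to 6.81 in stem-like cells and 1.31 to 6.88 in proliferating-like cells. One cluster of 16 cells had Dmbt1, Clca4, Dclk1 and Hmgb2 among its leading genes. It stayed unnamed because proliferating and tuft markers tied. It averaged 28.5 ± 1.03 in the 3 libraries with at least 3 such cells, between the tuft-like and the Paneth-like means. The traced 8-week CD24+ libraries 2 and 3, with 1 and 2 such cells, held 17.2 and 37.9. Its median depth was 18456 transcripts, against 6957 in tuft-like and 18026 in Paneth-like cells.

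Without the gate the secretory classes again held more than stem-like and proliferating-like cells on average. Paneth-like cells held 12.5 ± 5.83 (4 libraries), goblet-like cells 7.68 ± 4.32 (5 libraries), stem-like cells 4.29 ± 0.703 (6 libraries) and proliferating-like cells 3.82 ± 0.543 (6 libraries). Enterocyte-like cells, the absorptive cells marked by Fabp1 and Apoa1, were lowest with 0.717 ± 0.631 (3 libraries). In the traced 8-week library, 5 enteroendocrine-like cells held 17.1 and 3 Paneth-like cells 21, the same order as the means with the gate.

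**Figure D2:**
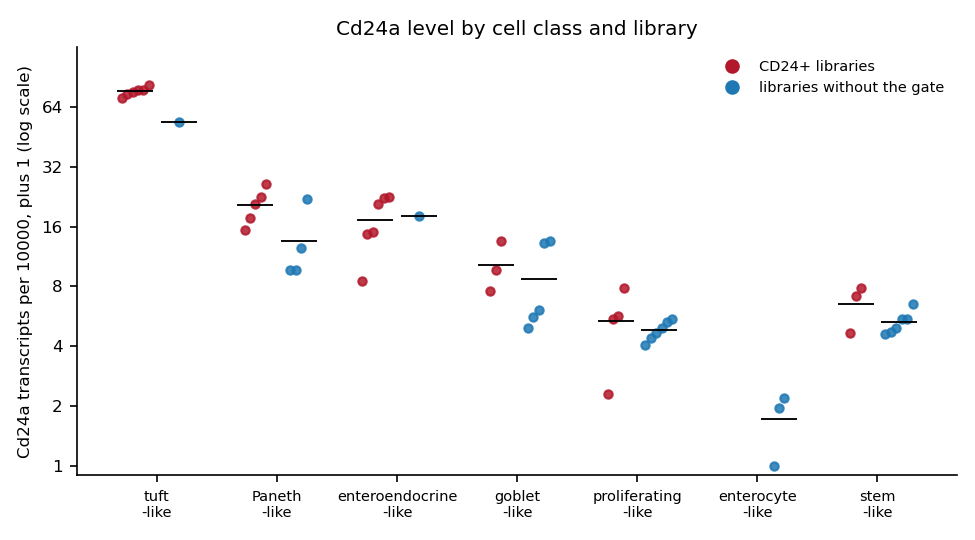
Cd24a transcripts per 10000, plus 1, on a log scale (y axis) by cell class (x axis), 1 point for each library with at least 3 cells of the class and black lines for means. Tuft-like cells of CD24+ libraries lie between 70.2 and 81.3 before the 1 is added, and enterocyte-like cells without the gate average 0.717.

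Within libraries, tuft-like, Paneth-like, enteroendocrine-like and goblet-like cells held more Cd24a than stem-like cells in the CD24+ sort, and Paneth-like cells did so without it. In one edgeR fit over 4442 genes with the library as a block, tuft-like cells exceeded stem-like cells by 3.89 on the log2 scale (SE 0.29; 14.8-fold, 9.98 to 22.1), with an adjusted p of 1.96e-24 where 24.7% of genes passed. Paneth-like cells exceeded them by 2.85 (SE 0.288; adjusted p 8.08e-16, edgeR; 19.3% of genes passed). Enteroendocrine-like cells exceeded them by 1.57 (SE 0.289; adjusted p 8.99e-06, edgeR; 18% passed) and goblet-like cells by 1.05 (SE 0.325; adjusted p 0.0259, edgeR; 7.29% passed). Proliferating-like cells differed from stem-like cells by -0.17 (95% interval -0.81 to 0.47; adjusted p 0.957, edgeR; 1.71% passed).

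These stem-like sums came from the 3 traced 8-week CD24+ libraries only, the others having fewer than 3 such cells. The Paneth-like value depends on scaling: it was 1.78 without the TMM factors (adjusted p 1.1e-07, edgeR), a setting that moved the median of all genes from -0.11 to -1.13. The goblet-like call was lost without the traced 8-week CD24+ library 1 (adjusted p 0.261, edgeR) or 3 (adjusted p 0.13).

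In the libraries without the gate, Paneth-like cells exceeded stem-like cells by 2.28 (SE 0.269; 4.86-fold, 3.36 to 7.03; adjusted p 2.48e-12, edgeR; 4.68% of genes passed). Without the TMM factors it was 1.51, where the median of all genes was -0.91 and not -0.18. Enterocyte-like cells fell by 2.27 on the log2 scale against stem-like cells (SE 0.517; adjusted p 0.000259, edgeR; 24.1% passed). Goblet-like cells exceeded stem-like cells by 0.72, which missed the threshold (adjusted p 0.061, edgeR; 10.6% passed). Proliferating-like cells differed by -0.30 (interval -0.79 to 0.18; adjusted p 0.903, edgeR; 1.26% passed).

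Whether the gate changed these class differences was tested in the same fit. The Paneth-like minus stem-like difference was greater in the CD24+ libraries than in those without the gate by 0.57 (95% interval -0.21 to 1.35; adjusted p 0.803, edgeR), with 0% of 4442 genes passing 331 genes at an unadjusted p under 0.05 and 5 genes called by DESeq2. The same contrast was 0.33 (-0.50 to 1.16) for goblet-like and 0.13 (-0.67 to 0.93) for proliferating-like cells, neither past the threshold. In both of these contrasts 0 genes passed by edgeR or DESeq2, while 179 genes for goblet-like and 170 for proliferating-like cells had an unadjusted p under 0.05.

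No difference in Cd24a between CD24+ libraries and libraries without the gate passed the threshold in Paneth-like, stem-like, goblet-like or proliferating-like cells. Tuft-like and enteroendocrine-like cells were not tested, since only 1 library without the gate had at least 3 cells of either class. Tuft-like cells averaged 75.5 per 10000 with the gate and held 52.7 in that library, and enteroendocrine-like cells 16.3 and 17.1. Paneth-like cells of CD24+ libraries exceeded those without the gate by 0.58 on the log2 scale (95% interval -0.07 to 1.24; adjusted p 0.185, edgeR; 1304 genes tested, 13.7% passed). Without the gate, Paneth-like cells held 8.68, 8.72 and 11.5 per 10000 in the 5-day libraries 2, 3 and 5. They held 21 in the traced 8-week library, within the gated range of 14.3 to 25.2. Different clusters made up the Paneth-like class. A Defa17-led cluster held 50 of the 59 Paneth-like cells with the gate, and a Gm15284-led cluster held 20 of the 24 without it. In the first cluster, Cd24a was 20.3 per 10000 over 50 cells with the gate and 20.6 over only 4 cells without it. In the second it was 12.8 over 9 cells with the gate and 8.82 over 20 cells without it. These cluster values were not tested. The Paneth-like difference did pass in some other settings. It was 1.00 (adjusted p 0.00277, edgeR) when the traced 8-week library without the gate was left out. That setting left only 5-day libraries on the side without the gate. With cells of at least 1500 transcripts kept, the difference was 1.08 (adjusted p 0.000813, edgeR).

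The other classes tested had smaller differences between CD24+ libraries and libraries without the gate. They were 0.33 in stem-like cells (-0.12 to 0.78; 3.76% of genes passed), 0.28 in goblet-like cells (-0.60 to 1.16; 0% passed, with 195 of 2027 genes at an unadjusted p under 0.05 and 10 called by DESeq2) and 0.24 in proliferating-like cells (-0.24 to 0.73; 3.31% passed). None of these passed, and the intervals leave room for differences of over 1.5-fold in each. With classes made from marker shares the value passed in stem-like cells (1.19, adjusted p 0.00704, edgeR) and in proliferating-like cells (1.56, adjusted p 0.00364, edgeR), as it did in proliferating-like cells at a clustering resolution of 0.5 (0.64, adjusted p 0.0423, edgeR). One cluster held most stem-like cells with the gate and another most of those without it, and the same was true of proliferating-like cells.

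Class shares and class levels can be recombined as plain arithmetic. Over the 6 named classes measured on both sides, the class shares and class levels of the CD24+ libraries gave 26.2 Cd24a transcripts per 10000. With the CD24+ shares and the levels of the libraries without the gate the value was 18.2, with the shares of the libraries without the gate and the CD24+ levels it was 8.36, and with both taken from the libraries without the gate it was 5.73. The tuft-like level without the gate in these sums, 52.7, came from 3 cells of 1 library. Shares here are of transcripts, and enterocyte-like cells and cells without a name were left out. Unnamed cells were 3.72% of the kept cells with the gate and 26% of those without it. Tuft-like cells were 31.2% of the kept cells in the CD24+ libraries, gave 19.7% of their transcripts and 58.2% of their Cd24a. In the libraries without the gate, 0.728% of kept cells were tuft-like and gave 3.41% of the Cd24a, while Paneth-like cells gave 22.5% and proliferating-like cells 21%.

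Within tuft-like cells, traced and non-traced libraries at 8 weeks overlapped. Traced tuft-like cells held 76.6, 70.2 and 73.3 per 10000 and non-traced ones 76.4 and 75.4, with a log2 difference of -0.06 (SE 0.109; 95% interval -0.28 to 0.17; adjusted p 0.995, edgeR; 0.0319% of 3138 genes passed). Traced Paneth-like cells held 14.3, 25.2 and 16.6 per 10000 and non-traced ones 21.5 and 19.8, also overlapping, with a log2 difference of 0.03 (-0.54 to 0.61; adjusted p 0.989, edgeR; 1.29% passed).

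Enteroendocrine-like cells held 7.51, 13.7 and 14.1 per 10000 in the traced libraries and 21.3 and 21.5 in the non-traced ones, without overlap. The log2 difference was -0.86 (SE 0.332; -1.58 to -0.13), with an adjusted p of 0.567 by edgeR, and 0.162% of 3080 genes passed. With the replicate number as a block the difference was -1.07 (adjusted p 0.0106, edgeR), although the numbers were not shown to pair the libraries. The class was made of clusters that differed in Cd24a, described below. The lower cluster, with Chga and Tac1, took 9 of 21, 6 of 19 and 6 of 17 traced cells. It had 25 cells over all CD24+ libraries tested, and no non-traced library had at least 3 cells in both clusters. The part of this make-up in the difference was not tested.

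Single cells spread over a wide range of Cd24a counts in every CD24+ library. Each cell was thinned to 3000 transcripts, so that depth could not set the share of cells with a Cd24a transcript. That share was 88.7% in the traced 3-week CD24+ library, 86.2%, 86.2% and 91.3% in the traced 8-week CD24+ libraries, and 97.6% and 100% in the non-traced 8-week CD24+ ones. Without the gate it was 54.1% to 73.5% in the 5-day libraries and 65% in the traced 8-week library, and it was 34% in the library labelled non-traced 3-week CD24+. Unthinned, the mean share over libraries was 97.7% with the gate and 87.5% without it.

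Cells with 5 or more Cd24a transcripts after thinning were 40.3% of the traced 3-week CD24+ cells, 31%, 46.2% and 50.7% of the traced 8-week CD24+ cells and 83.3% and 81% of the non-traced ones. They were 0% to 7.94% of the cells in the 5-day libraries and 12.5% in the traced 8-week library without the gate. Median counts after thinning ran from 2 to 11.5 in the CD24+ libraries and were 1 in each library tested without the gate.

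**Figure D3:**
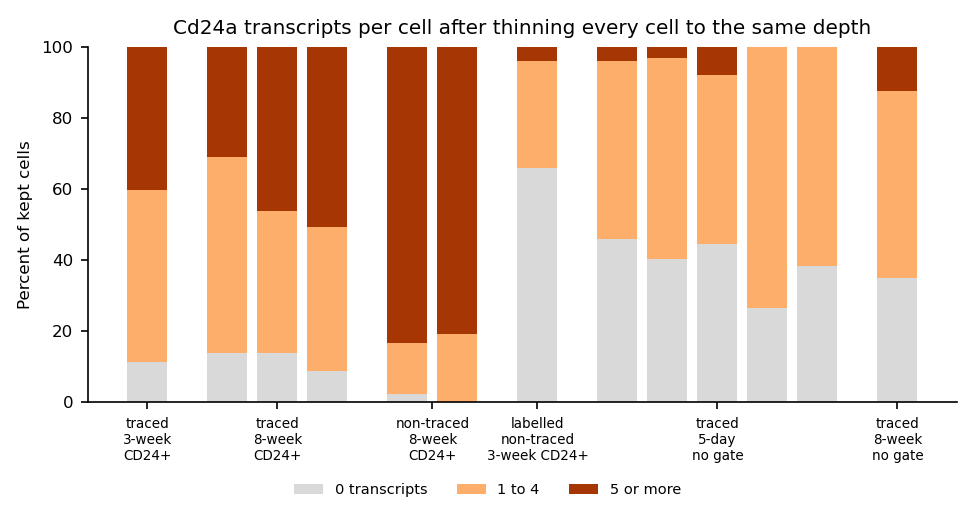
Percent of kept cells (y axis) with 0, 1 to 4, or 5 or more Cd24a transcripts after each cell was thinned to 3000 transcripts, 1 bar for each library, grouped by sort and time (x axis). In the non-traced 8-week CD24+ libraries 83.3% and 81% of cells reach 5 transcripts, against at most 12.5% in libraries without the gate.

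After thinning, all 134 tuft-like cells of the CD24+ libraries held Cd24a, with a median of 22 transcripts, as did 58 of 59 Paneth-like cells, with a median of 5. At full depth, tuft-like cells had a median of 71.2 per 10000, with quartiles of 57.3 and 89.4 and extremes of 10.5 and 137.4. Enteroendocrine-like cells ranged from 0 to 114.3 per 10000 around a median of 13.4. In the libraries without the gate, enterocyte-like cells served as the background for RNA free in the sample. The CD24+ libraries tested had only 1 such cell, so this background was not measured there. Without the gate, 0 of 21 held a transcript after thinning, which allows a share of up to 14.3% at the thinned depth. Before thinning, at a median depth of 8288 transcripts, 33.3% of these 21 cells held one. Of the stem-like cells without the gate, 68 of 100 held one after thinning and 89% before it, at a median depth of 6769. Intervals and limits of this kind cover counting error only.

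Some cells that had passed the CD24 sort showed no Cd24a transcript at the thinned depth. They were 36 of 430, namely 10 of 97 enteroendocrine-like, 9 of 39 proliferating-like, 9 of 34 stem-like, 6 of 50 goblet-like and 1 of 59 Paneth-like cells, and the 1 enterocyte-like cell. Before thinning, 9 of the 430 showed none. The sort read the protein and the libraries the transcript, and no protein value was among the files used here.

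Clusters inside a class also differed in Cd24a, and these differences are given without a test. Tuft-like cells formed a larger cluster of 88 cells, led by Adh1 and Kctd12, and a smaller one of 51 cells, with Adh1 and Dclk1 among its leading genes. In every one of the 6 CD24+ libraries the smaller cluster held more: 96.3 against 64.6 in the traced 3-week library, 87 against 66.9, 88.3 against 62.4 and 92.9 against 57.9 in the traced 8-week libraries, and 93.3 against 60.7 and 96.7 against 68.8 in the non-traced ones. The smaller cluster ranged from 87 to 96.7 and the larger from 57.9 to 68.8, so the clusters did not overlap. Median depth was 7598 transcripts in the smaller cluster and 6636 in the larger.

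Enteroendocrine-like cells were split likewise. In the traced 8-week CD24+ libraries, the cluster led by Cpe, Chgb and Gip, the last being an incretin hormone, held 10.1, 18.1 and 19 per 10000. The cluster with Chga, the tachykinin gene Tac1 and Tph1, the enzyme that starts serotonin synthesis, held 5.28, 6.34 and 6.83. Among Paneth-like cells, the Defa17-led cluster held 16 and 17.8 in the 2 traced 8-week CD24+ libraries with at least 3 cells of each, and the Gm15284-led cluster 8.95 and 13.5.

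**Figure D4:**
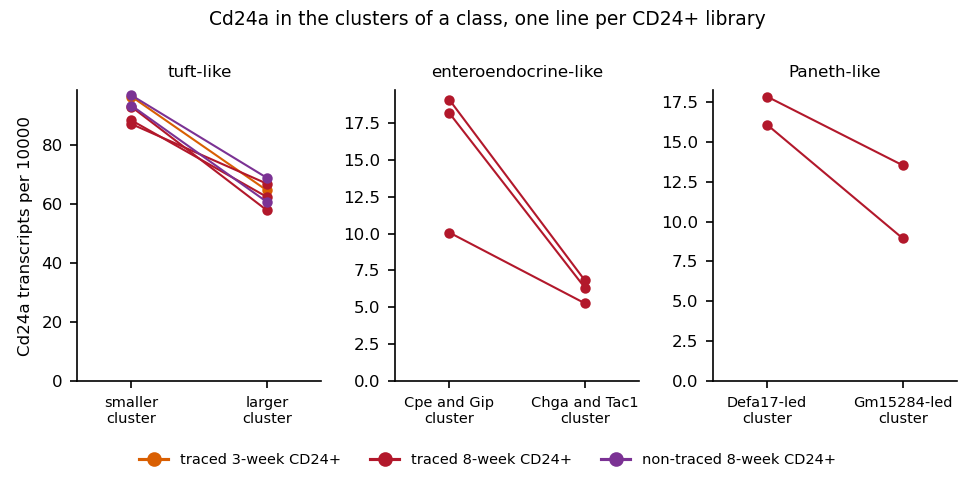
Cd24a transcripts per 10000 (y axis) in the clusters that make up the tuft-like, enteroendocrine-like and Paneth-like classes (x axis), with 1 line for each CD24+ library that had at least 3 cells in both clusters. In all 6 tuft-like lines the smaller cluster, at 87 to 96.7, is above the larger cluster, at 57.9 to 68.8.

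The genes named here as most like Cd24a in pattern were all highest in tuft-like cells. Likeness was the Pearson correlation of log2(level + 1) over 48 sums of a library and a class with at least 5 cells, each library centred on its mean, among 1723 genes averaging at least 1 per 10000. The points share libraries, classes and depth, and the values are a description. Ranked by Spearman's rho, 7 of the 12 highest genes stayed among the first 12, and 6 did so in the CD24+ libraries alone and 2 in the libraries without the gate alone. By r, the 12 highest included Reep5 (0.89), Man2a1 (0.79), Atp2a3 (0.79), Tm4sf4 (0.78), Alox5ap (0.78), Kctd12 (0.78), Lrmp (0.77), Spib (0.77), Dclk1 (0.77), Tuba1a (0.77) and Pygl (0.76), and 2 of these 11 were on the tuft marker list.

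Reep5, which shapes the endoplasmic reticulum membrane, had the highest value. Its level was 6.82 per 10000 in tuft-like, 0.934 in Paneth-like, 1.14 in enteroendocrine-like and 0.8 in goblet-like cells, against 0.0304 in stem-like and 0.0302 in proliferating-like cells. Over the same sums Cd24a was at 75.5 in tuft-like, 16.4 in Paneth-like, 16.4 in enteroendocrine-like and 8.28 in goblet-like cells, against 4.7 in stem-like and 4.33 in proliferating-like cells. Man2a1, a mannosidase of the Golgi that trims N-linked sugars, was also above stem-like cells in each of these 4 classes, at 3.26 in tuft-like, 1.5 in Paneth-like, 1.72 in enteroendocrine-like and 1.39 in goblet-like cells, against 0.862 in stem-like cells. Lrmp, the transcription factor gene Spib and Dclk1 were near 0 outside tuft-like cells: Spib was 18.9 per 10000 in tuft-like cells and at most 0.182 in the other classes.

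The 6 lowest were Pigr (-0.91), which carries antibodies across the epithelium, Prdx1 (-0.89), a peroxide-removing enzyme, H2-Aa (-0.82) and Cd74 (-0.82), which belong to antigen presentation by MHC class II, Krt19 (-0.82), a keratin, and Ccl25 (-0.82), a chemokine. Pigr was 4.52 per 10000 in tuft-like cells and 38 in enterocyte-like cells, the reverse of Cd24a. Within tuft-like cells, centred by library, the correlation with Cd24a over single cells was 0.63 for Tm4sf4 and 0.60 for Dclk1. Those points share cell depth and sparse counts, and no more is read from them.

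**Figure D5:**
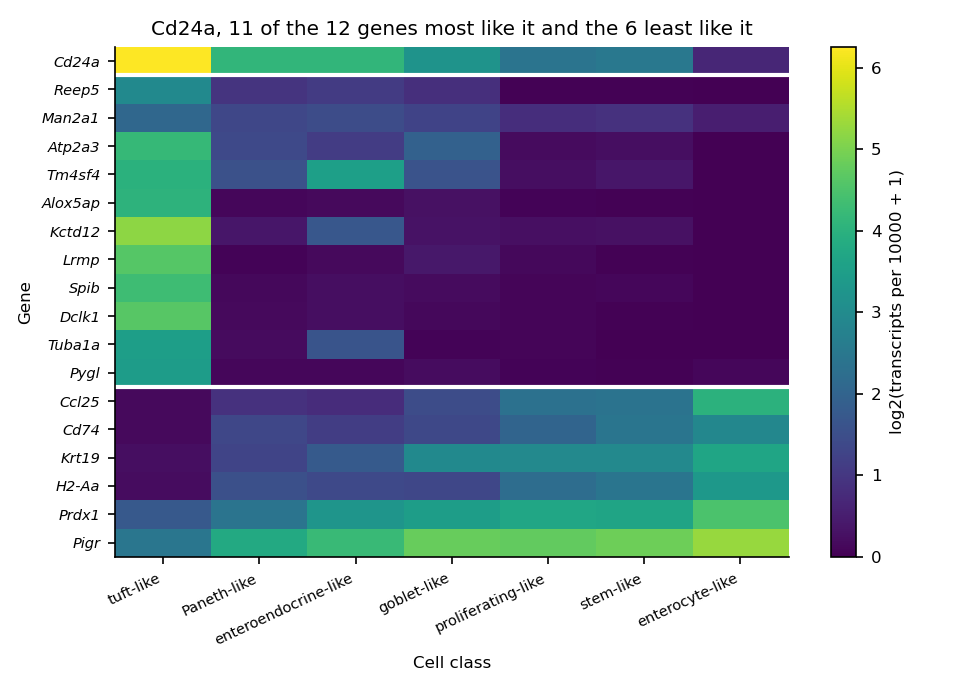
Mean log2(transcripts per 10000 + 1) (colour) of Cd24a, 11 of the 12 genes most like it and the 6 least like it (rows) in each cell class (columns), over the same sums of a library and a class. Cd24a is graded over the classes, from 75.5 per 10000 in tuft-like cells downwards, while Dclk1 and Spib are near 0 outside tuft-like cells.

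Other surface antigens used to sort this epithelium moved in both directions between the classes. Of 16 tested between tuft-like and stem-like cells of CD24+ libraries, 3 were higher, 4 lower and 9 did not pass, with a median log2 difference of 0.11 beside 0.00 over all genes, of which 11.8% were higher and 12.9% lower. Tspan8, a tetraspanin, was 23.1 ± 3.05 per 10000 in tuft-like and 8.85 ± 0.561 in stem-like cells (log2 difference 1.55, adjusted p 6.16e-08, edgeR). Cd47, a signal against phagocytosis, differed by 2.23 (adjusted p 1.85e-08, edgeR) and Kit, a receptor kinase used to sort secretory cells, by 3.23 (adjusted p 9.07e-06, edgeR). Cd81, another tetraspanin, was 0.0411 ± 0.0646 in tuft-like and 5.23 ± 1.66 in stem-like cells (log2 difference -5.89, adjusted p 6.30e-20, edgeR). Cd44, Cd9 and Lgr5 were also lower in tuft-like cells, but the Cd9 call was lost without the traced 8-week CD24+ library 3 and the Lgr5 call without the traced 8-week CD24+ library 1 or 2. Lgr5 was on the marker list that named the stem-like class. Its lower calls against stem-like cells, here and in the other classes below, were therefore favoured in advance and carry no weight of their own.

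Kit was called higher in Paneth-like and goblet-like cells as well. Its log2 difference from stem-like cells was 3.04 in Paneth-like cells (adjusted p 9.78e-05, edgeR) and 3.14 in goblet-like cells (adjusted p 0.000728, edgeR, and 0.0642 without the traced 8-week CD24+ library 3). In Paneth-like cells 1 of 16 antigens was higher and 4 were lower, Cd44, Cd81, Itga6 and Lgr5, beside 10.3% of all genes higher and 9.03% lower. Of these, Cd81 and Itga6 lost their calls without several of the single libraries, and without the TMM factors 12 of the 16 were lower. In enteroendocrine-like cells 1 was higher, Cd81 with 9.59 ± 1.07 per 10000 (log2 difference 0.93, adjusted p 0.00491, edgeR), and 4 were lower, Cd38, Epcam, Lgr5 and Tspan8, beside 10% of all genes higher and 8.04% lower. Here the Epcam call was lost without 7 single libraries and the Cd81 call without the traced 8-week CD24+ library 2. In goblet-like cells 2 were higher, Kit and the Notch ligand Dll1 (log2 difference 3.65, adjusted p 2.99e-05, edgeR), and 3 were lower, Cd44, Cd81 and Lgr5, beside 5.52% of all genes higher and 1.78% lower, and the Lgr5 call was lost without the traced 8-week CD24+ library 1 and the Cd81 call without that library, the traced 8-week CD24+ library 3 or the traced 3-week CD24+ library.

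Against the 5-day libraries, 11 of 20 surface antigens were higher and 4 lower in traced 8-week CD24+ cells, beside 17.8% of all genes higher and 17.6% lower, in a comparison of both gate and time. Against cells taken at the same time, 1 of 20 surface antigens was higher and 0 lower in traced 8-week CD24+ cells than in traced 8-week cells without the gate, beside 1.79% of all genes higher and 0.862% lower. It was Kit, at 0.801, 1.04 and 0.782 per 10000 with the gate and 0.442 without it (log2 difference 1.04, adjusted p 0.0345, edgeR). That call was lost without the traced 8-week CD24+ library 2 or 3, by DESeq2 (adjusted p 0.246) and without the TMM factors (adjusted p 0.0652, edgeR), where 0 of the 20 were higher. Kit was also lower in traced than in non-traced 8-week CD24+ cells, with 0.801, 1.04 and 0.782 against 2.25 and 1.81 (log2 difference -1.25, adjusted p 0.00131, edgeR), and this call was kept without each library in turn. In that comparison 1 antigen was higher, Cd81, and 2 lower, Kit and Cd47, of 20 tested, beside 1.96% of all genes higher and 2.32% lower. The Cd47 call was lost without the traced library 1 or the non-traced library 1, and the Cd81 call without the traced library 1 or either non-traced library. All 3 calls come from sums over whole libraries, in which the share of tuft-like cells differed. Within tuft-like cells, 0 of 13 antigens tested passed between traced and non-traced libraries, where 0.0319% of 3138 genes passed. The part of cell make-up in these calls was not tested.

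Among partners and kinases of CD24, 2 of the 4 genes tested and reported were higher in tuft-like than in stem-like cells and 0 were lower, beside 11.8% of all genes higher and 12.9% lower. Lyn, a kinase that signals below CD24 in B cells, was 2.31 ± 0.588 per 10000 in tuft-like and 0.282 ± 0.121 in stem-like cells (log2 difference 3.10, adjusted p 1.93e-05, edgeR). L1cam, an adhesion molecule that binds CD24, was 1.93 ± 0.453 per 10000 in tuft-like and 0.483 ± 0.215 in stem-like cells (log2 difference 1.81, adjusted p 0.0181, edgeR), a call lost without the traced 8-week CD24+ library 1 or 3.

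In traced against non-traced 8-week CD24+ cells, Lyn and L1cam were lower and Hmgb1, a nuclear protein that binds CD24 once released from cells, was higher. Each of these 3 calls was lost without the traced library 1, the non-traced library 1 or the non-traced library 2, and the Lyn call also without the traced library 2. They come from sums over whole libraries, in which the share of tuft-like cells differed. Within tuft-like cells, 0 of 4 partners tested passed between traced and non-traced libraries, where 0.0319% of 3138 genes passed. The part of cell make-up in these calls was not tested.

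Genes that start and extend mucin-type O-linked sugars, which CD24 carries, were higher in Paneth-like and goblet-like cells, and few of them differed in tuft-like cells. Of 12 tested in CD24+ libraries, 9 were higher in Paneth-like than in stem-like cells and 0 lower, with a median log2 difference of 1.97 beside -0.11 over all genes, of which 10.3% were higher and 9.03% lower, and without the TMM factors 6 were higher and 1 lower. In goblet-like cells 8 were higher and 1 lower (median 2.53 beside -0.04 over all genes, of which 5.52% were higher and 1.78% lower). The goblet-like calls of Galnt3, Galnt4, Galnt10 and St6galnac2, the lower one, were lost when certain single libraries were left out. So were the Paneth-like calls of Galnt6 and Galnt10. The other Paneth-like and goblet-like calls were kept in every such fit that tested the gene. In tuft-like cells 1 was higher, St6galnac2, and 1 lower, Galnt6, with a median of 0.39, beside 11.8% of all genes higher and 12.9% lower, and the St6galnac2 call was lost without the traced 8-week CD24+ library 3. In enteroendocrine-like cells 1 was higher, C1galt1c1, beside 10% of all genes, in a call lost without 8 of the 12 single libraries.

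Galnt12, which adds the first sugar, was 2.36 ± 0.473 per 10000 in Paneth-like and 4.86 ± 0.591 in goblet-like cells, and 0.502 ± 0.223 in stem-like cells. C1galt1c1, the chaperone of the enzyme that adds the next one, was 2.23 ± 0.817 in Paneth-like and 2.75 ± 0.141 in goblet-like cells, and 0.248 ± 0.14 in stem-like cells. In tuft-like cells Galnt12 was at 0.29 ± 0.107 and C1galt1c1 at 0.69 ± 0.18. Of the genes that build and attach the GPI anchor, 8 were abundant enough to test between classes, and 0 passed in tuft-like, Paneth-like, enteroendocrine-like or goblet-like cells against stem-like cells, where edgeR called between 7.29% and 24.7% of all genes. At an unadjusted p under 0.05 there was 1 such gene in Paneth-like and 1 in enteroendocrine-like cells, and DESeq2 called 0. Without the TMM factors 4 of the 8 were lower in Paneth-like cells.

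Sox9, a transcription factor of the crypt base, had a likeness of 0.55 to Cd24a and ranked 68th. The value was 0.74 over the CD24+ libraries alone and 0.034 over the libraries without the gate alone. It was 8.29 ± 1.97 per 10000 in tuft-like and 3.52 ± 0.948 in stem-like cells (log2 difference 1.31, adjusted p 2.34e-05, edgeR). In enteroendocrine-like cells, at 1.27 ± 0.441, it was lower than in stem-like cells (log2 difference -1.27, adjusted p 0.00126, edgeR), where Cd24a was higher. In Paneth-like cells it was called higher by 0.82 (adjusted p 0.0231, edgeR), but without the TMM factors the value was -0.25, and the call was lost without the traced 8-week CD24+ library 1 or 3. Whole traced 8-week CD24+ libraries held 2.85, 3.74 and 3.88 per 10000 against 1.74 in the traced 8-week library without the gate (log2 difference 1.07, adjusted p 0.0254, edgeR, and 0.0589 without the CD24+ library 3).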

How the data were processed

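The deposited files of the 13 libraries hold expected counts (transcripts of each gene in each cell), which the authors corrected for collisions among 256 molecular barcodes; this was read from the values, which lie on that transform. Reads were aligned with BWA 0.6.2-r126 to mm10, per the submitters' processing notes; gene models and read filters are not given in the sources used here. Spike-in rows were left out. Cells with at least 3000 transcripts were kept, with no doublet caller, since cells had been sorted into wells. A combined deposited table was used only to compare sets with libraries.

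Counts were split at random (probability 0.5). One share, without Cd24a, was clustered with scanpy 1.11.5 (2000 variable genes, 30 components, 10 neighbours, resolution 1). A cluster was named if at least 3 markers of a type rose by 0.25 or more within libraries and at least 1 stood among its 10 leading genes. Ties, and clusters drawn to more than 85% from a single library, stayed unnamed. Sums of at least 3 cells of a library and class, rounded to whole numbers, were tested in edgeR 4.0.16 (quasi-likelihood, TMM factors, its default filter on low counts, Benjamini-Hochberg over all genes tested, threshold 0.05). Fits were checked on counts simulated with known 2-fold and 4-fold changes. Between traced and non-traced 8-week CD24+ libraries, 56% of 2-fold and 97% of 4-fold changes were recovered, and 7.83% of calls were false. In the other comparisons simulated, 64% to 85% of 2-fold changes were recovered and 2.67% to 5.61% of calls were false. The gate was compared with an exact permutation test over libraries, written in Python with numpy 2.4.6. DESeq2 1.42.0, other filters, minimums, scalings and classes, and leaving out each library were alternatives. Genes named by likeness are the 12 highest and 6 lowest, plus Sox9. List genes are named where they passed. Results for 1 gene are not reported here, and it was left out of the list counts. Cd24a, the lists and the markers were chosen with earlier results of these data known. Every library used the same set of 96 cell barcodes, so a barcode number shared between libraries does not mark a shared cell.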

Additional observations from a re-analysis of the deposited data

Results flagged for a closer look

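Among the 5-day libraries, the highest Cd24a level, 6.07 per 10000 in library 3, lay further from the next one than the range of the 5 values makes usual. It was 1 of 6 groups of values tested in this way, and chance alone picks out about 1 in 20. This library had 12.7% Paneth-like cells among its kept cells, against 1.35% to 10.4% in the other 5-day libraries, and its 12 cells without a class name held 7.01 Cd24a transcripts per 10000, against 1.47 to 3.03 in those of the other 5-day libraries. The part of either in its level was not tested.

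Barcodes with fewer than 3000 transcripts were left out of every comparison but also held Cd24a. In the CD24+ libraries tested, 146 such barcodes held 29.6 per 10000 (248.7 of 83896 transcripts). In the libraries without the gate, 164 such barcodes held 4.12 per 10000 (67.3 of 163194 transcripts).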

How the results depend on the processing

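Of the Cd24a results under each alternative, 398 kept their direction and side of the threshold or stayed close to their value, 12 were weaker, 15 stronger, 13 reversed and 5 moved; the causes were not tested. The traced against non-traced difference at 8 weeks ranged from -1.09 to -0.86 with 1 library left out, and was -0.99 and -0.97 without the non-traced library 1 and 2.

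For goblet-like against stem-like cells with the gate, the value was 1.16 by DESeq2 (adjusted p 0.128), 1.12 without a filter on low counts, 0.89 with all counts, 0.95 without the TMM factors, and 0.82 to 1.25 with 1 library left out. Without the gate it was 0.77 with all counts, 0.76 without the TMM factors, 0.93 at resolution 0.5, 1.36 with classes by marker share, and 0.52 to 0.91 with 1 library left out (0.73 without the 3-week library). Proliferating-like against stem-like cells with the gate gave 0.12 at resolution 0.5 and -0.42 to 0.016 with 1 library left out; the difference between gates was -0.035 with all counts and -0.13 to 0.29 with 1 left out.

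Paneth-like cells with against without the gate gave 1.08 at a minimum of 1500 transcripts, 1.09 at resolution 0.5, 1.11 at resolution 2 and 0.44 to 1.00 with 1 library left out. Traced against non-traced Paneth-like cells gave -0.10 without a filter, -0.092 at a minimum of 1500, -0.11 at resolution 2, -0.16 without the TMM factors and -0.12 to 0.14 with 1 left out (-0.088 without the non-traced library 2). Proliferating-like cells with against without the gate gave 0.64 at resolution 0.5.

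Classes by marker share matched 73.7% of the 892 kept cells, among which cells without a name could not match. These classes gave 0.74 for enteroendocrine-like and -0.91 for enterocyte-like against stem-like cells. The difference between gates was -0.33 in Paneth-like and -0.41 in goblet-like cells. The gate gave 0.97, 1.56 and 1.19 within Paneth-like, proliferating-like and stem-like cells. Traced against non-traced tuft-like cells gave 0.041. Sox9 in Paneth-like cells was -0.25 without the TMM factors. The gate difference among libraries later than 5 days was 2.02. Of the 12 genes most like Cd24a, 7 remained by Spearman's rho, 6 in CD24+ libraries alone and 2 without the gate alone. Unthinned shares of cells with a transcript were 97.7% with and 87.5% without the gate.

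Same-numbered libraries did not deviate together (correlations -0.0207 to 0.127). With a replicate block, the 8-week CD24+ against 5-day comparison called 3057 genes, traced against non-traced called 485, and Cd24a in enteroendocrine-like cells was -1.07, its 1 changed call. Traced against non-traced calls numbered 428, and 165 by DESeq2, 781 without a filter and 32 to 399 with 1 library left out. The 8-week gate comparison called 265 genes, and 138 by DESeq2 and 596 without a filter. Paneth-like against stem-like calls with the gate were 53.3% higher, against 9.97% without the TMM factors.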
